A study of Arabidopsis thaliana with 3 samples.

Results

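GRF5 is a growth-regulating factor, a plant transcription factor that promotes cell proliferation, and its DNA binding was profiled here by DNA affinity purification sequencing (DAP-seq). The peaks described below ran from the promoter of a gene into a coding exon of that same gene, so each lay across the start of its gene. They are called spanning peaks. A peak counted when the authors' annotation gave the same gene a promoter entry and a coding exon entry for it in the lists of both GRF5 libraries, and when the pair of peaks shared 50% or more of the length of the shorter peak. Of 19008 nuclear peaks shared by both libraries, 812 (4.27%) met this rule, and they spanned 818 genes. All 818 were labelled protein-coding, which a rule with a coding exon entry largely sets, and no gene had more than 1 spanning peak.

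Recombinant His-tagged GRF5 made in Escherichia coli was mixed with sheared root DNA of Arabidopsis thaliana, wild-type Col-0, whose 7-day-old seedlings had spent 3 days on 0.2 mM nitrate, and recovered with an antibody against GRF5. The groups were 2 GRF5 libraries, called replicates 1 and 2, and 1 input library of the same tissue and genotype, whose treatment is labelled only as control. Each peak list was called against that input, there was no pull-down without GRF5, and the DNA carried no chromatin, so a peak marks DNA recovered over input and not occupancy in root cells. The design text of the series speaks of chromatin immunoprecipitation for the names these lists carry. Library titles and protocols give DAP-seq, which was followed.

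The start of a plant gene holds the core promoter, then the transcribed leader, then the first coding exon. GRF proteins bind DNA through a WRC domain and act with GIF coactivators. In plants they are known for driving growth of leaves and roots, many but not all of them under control of the microRNA miR396. The authors' annotation has classes for promoter, coding exon, intron, other exon and intergenic sequence but none for the leader, so how much of it a spanning peak covered is not given. In the 2 lists taken alone, 1641 of 28349 nuclear peaks of replicate 1 and 1451 of 27054 of replicate 2 were spanning. The median summit pileup, the number of fragments over a peak's highest point, was 88 in replicate 1 and 83 in replicate 2 for spanning peaks, against 87 and 82 for all other shared peaks. Depth is known only through these pileups, since library totals were not analysed here.

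The spanning peak with the highest enrichment lay on GRF9 (AT2G45480), a member of GRF5's own family. It ran on chromosome 2 from 18744776 to 18745598 in replicate 1, with a pileup of 390 fragments in replicate 1 and 379 in replicate 2. Its fold enrichment, the authors' ratio of the summit's pileup over a local background that the input sets, was 8.34 and 8.64, and the summits lay 1 bp apart. It ranked ninth among all shared peaks and also touched the promoter of FLA8, a fasciclin-like arabinogalactan protein gene. The peak of AT5G38760 on chromosome 5, from 15523879 to 15524420, had a pileup of 424 and 381 fragments and 7.67- and 7.66-fold enrichment. It reached the promoter of GDU7, a glutamine dumper gene of amino acid export.

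NAC019 (AT1G52890), whose product is a NAC transcription factor of abscisic acid and drought responses, lay under a peak of 344 and 333 fragments whose enrichment was 7.31-fold in replicate 1 and 7.45-fold in replicate 2. This peak also covered a NAC019 intron and touched no other gene. Its bounds were 574 bp apart in replicate 1 and 833 bp apart in replicate 2, although the summits differed by 3 bp. XLG1 (AT2G23460), which encodes an extra-large G protein, carried a peak of 984 and 966 bp with 7.01- and 6.93-fold enrichment, again with no other gene. A further gene of G protein signalling, GG1 (AT3G63420), which encodes a gamma subunit, had 4.18- and 4.16-fold enrichment on chromosome 3 from 23417193 to 23417867. That peak included an intron of GG1 and the promoter of APG1.

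Metabolic genes followed. MEE51 (AT4G04040), annotated as a phosphofructokinase of sugar breakdown, had 6.91- and 6.13-fold enrichment in a peak of 456 and 400 bp that it shared with the promoter of OFP9, an ovate family gene. GUS2 (AT5G07830), a glucuronidase gene, had 5.21- and 5.00-fold, while ENODL14 (AT2G25060), of the early nodulin-like family, had 6.64- and 5.65-fold. APL3 (AT4G39210), which encodes a large subunit of the starch synthesis enzyme ADP-glucose pyrophosphorylase, had 3.69- and 3.47-fold, and FOLB3 (AT3G21730), a dihydroneopterin aldolase gene of folate synthesis, 3.43- and 3.45-fold. APX5 (AT4G35970), an ascorbate peroxidase gene, had 3.42- and 3.80-fold. In the FOLB3 peak the summits of the libraries lay 161 bp apart.

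The rest of the 20 spanning peaks with the highest mean enrichment covered varied genes. DREB2C (AT2G40340), an AP2-type transcription factor gene of heat and drought responses, had 3.70- and 3.75-fold enrichment in a peak of 1753 and 1665 bp. LCR42 (AT3G23165), a gene for a small cysteine-rich protein, had 3.21- and 3.28-fold in one of only 297 and 280 bp. AT3G46760, annotated as a protein kinase, had 5.49- and 5.36-fold, and AT5G22580, of the stress-responsive A/B barrel family, 5.31- and 4.64-fold. AT5G65950, annotated as a subunit of a trafficking particle complex, had 3.71- and 3.93-fold and shared its peak with the promoter of CHY1. The remaining members were AT1G54870, AT4G35710, AT5G36661 and AT4G16770, with enrichments from 3.14 to 3.89 over both libraries.

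**Figure D1:**
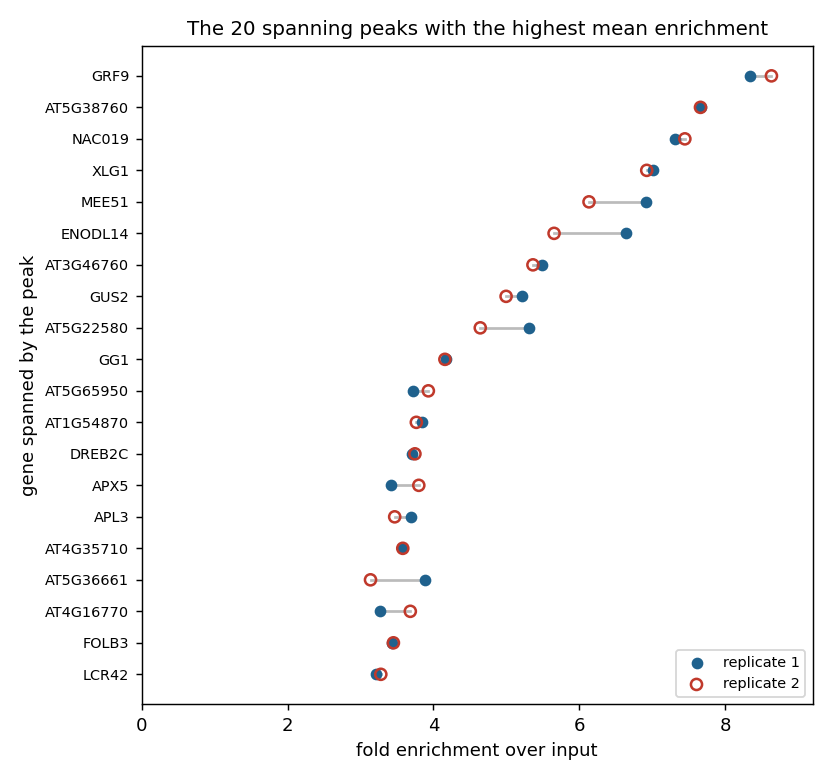
Fold enrichment over input of the 20 spanning peaks with the highest mean, by gene; the filled point is replicate 1, the open point replicate 2, and the grey line joins them. GRF9 stands highest at 8.34 and 8.64, and the widest gap in the plot is that of ENODL14, at 6.64 and 5.65.

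Such strong peaks were few. A fold enrichment of 3 or more in both libraries was reached by 22 spanning peaks (2.71%), against 247 (1.36%) of the 18196 other shared peaks, where the background over all shared peaks was 1.42%. At least 2-fold in both was reached by 203 spanning peaks (25%) and 3994 others (21.9%), with a background of 22.1%. Of the 22 peaks at 3-fold or more, 14 also touched the promoter of another gene, which left 8 without one. Over all spanning peaks it was 403 of 812 (49.6%). The 22 peaks, GRF9 to AT3G10750 (3.00- and 3.01-fold), held 67 to 424 fragments in replicate 1 and 49 to 381 in replicate 2. The lowest pileup among them was that of AT5G36661, described below. Their summits lay a median of 4.5 bp apart, and 19 of the 22 lay within 20 bp. Over all spanning peaks, as over all other shared peaks, the median was 52 bp. The gap was not measured for the 247 other peaks at 3-fold, so it is not shown to be particular to spanning peaks.

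Most spanning peaks were weak. Their fold enrichment had a median of 1.93 (quartiles 1.77 and 2.12) in replicate 1 and 1.94 (1.77 and 2.13) in replicate 2, against 1.88 and 1.89 for all other shared peaks. The difference of the medians was 0.045 in replicate 1 and 0.049 in replicate 2, in units of fold enrichment. The medians of the spanning peaks differed between the libraries by an SD of 0.0075 in the same units. For single spanning peaks, the log2 ratio between the libraries had an SD of 0.18. The lowest spanning peaks included AT5G65207, with 1.35- and 1.43-fold, and AT1G20925, annotated as an auxin efflux carrier family gene, with 1.56- and 1.34-fold. Peaks are not replicates, and a pair of libraries allows no two-sided exact permutation p below 0.5, so differences between spanning and other peaks are given here as descriptions without a test.

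**Figure D2:**
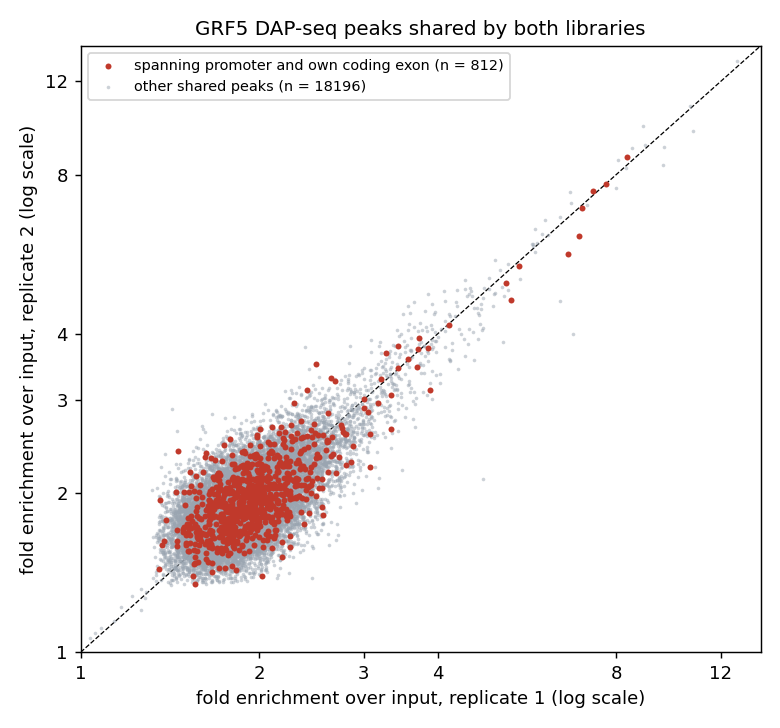
Fold enrichment over input of each shared peak in replicate 1 (horizontal) and replicate 2 (vertical), both on log scales, with the 812 spanning peaks in red over the 18196 other shared peaks in grey and equality as a dashed line. Most red points lie within the grey cloud near 1.93 and 1.94, and a tail of 22 lies at 3 or above in both libraries.

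The libraries ordered the spanning peaks much as they ordered the rest. Across the 812 peaks, fold enrichment had a Spearman's rho of 0.58 between replicates and log2 enrichment a Pearson's r of 0.80, a description over peaks that share one input. For the other shared peaks the values were 0.57 and 0.71. Summits lay within 100 bp of each other in 519 spanning peaks (63.9%), against a background of 65.2% over all shared peaks. The gene with the highest replicate 1 over replicate 2 ratio was DXR, of plastid isoprenoid synthesis, with 2.03- and 1.39-fold, followed by AT3G56730 with 2.19- and 1.51-fold and SCL5, a scarecrow-like gene, with 2.26- and 1.58-fold. The ratio was lowest for TPR8, with 1.46- and 2.4-fold, LAX3 with 1.63- and 2.38-fold, and AT2G21727, an ECA1-type gene, with 1.62- and 2.34-fold. For DXR and TPR8 the peak was also much longer in the library with the higher value, 971 against 366 bp for DXR in replicates 1 and 2, and 535 against 1447 bp for TPR8.

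The 3787 shared peaks that held a promoter and a coding exon only of different genes are the nearest kind. Their median enrichment was 1.84 in replicate 1 and 1.85 in replicate 2, below the 1.93 and 1.94 of spanning peaks, and 66 (1.74%) reached 3-fold in both libraries. The 6039 shared peaks on a promoter without any coding exon had medians of 1.92 in both libraries, and 37 of them (0.613%) reached 3-fold. Among the 5146 on a coding exon without a promoter, the medians were 1.86 and 1.87 and 118 (2.29%) reached it. By medians, spanning peaks stood closer to promoter-only peaks than to either other kind, and by the share at 3-fold closer to peaks on a coding exon alone.

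Spanning peaks were longer than the others. Their median length was 577.5 bp in replicate 1 and 572.5 bp in replicate 2, against 471 and 458 bp for other shared peaks, and they ran from 244 to 2607 bp in replicate 1. By the mean of both libraries, the longest lay on AT1G55680, a WD40 repeat gene (2607 and 1475 bp), AT1G65295 (2077 and 2063 bp) and AT5G49870, a lectin gene (2141 and 1653 bp), none of which exceeded 2.3-fold in either library. By the same mean, the shortest lay on AT1G33590, a leucine-rich repeat gene (266 and 243 bp), the defensin-like gene AT1G13607 (245 and 265 bp) and AT1G65352 (245 and 268 bp). The share of shared peaks that spanned grew with length, a measure that bears on how many annotated regions a peak can reach. It was 2.21% (38 of 1717) up to 300 bp, 4.16% (202 of 4856) from above 500 to 700 bp and 9.90% (119 of 1202) above 1000 bp.

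The median enrichment of both kinds of peak was higher in the longest class. Among shared peaks above 1000 bp the median was 2.04 in replicate 1 and 2.01 in replicate 2 for spanning peaks, against 2.06 and 2.05 for the others. Between 300 and 400 bp it was 1.89 and 1.90 for spanning peaks, against 1.83 and 1.84. Within classes of length the spanning peaks thus had the higher median in some and the lower in others. In the strongest 1% of shared peaks, GRF9, NAC019 and FOLB3 among them, 19 of 191 (9.95%) were spanning. In the weakest 25% it was 148 of 4752 (3.11%). Between these classes the share did not rise steadily with enrichment. It was 4.06%, 4.99%, 4.91%, 4.21% and 4.61% in the successive classes from the 25th to the 99th percentile. Median length over all shared peaks was 659 bp in the strongest class and 428.5 bp in the weakest. Spanning peaks had a shorter median than all shared peaks in the strongest class, and a longer one in every weaker class.

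**Figure D3:**
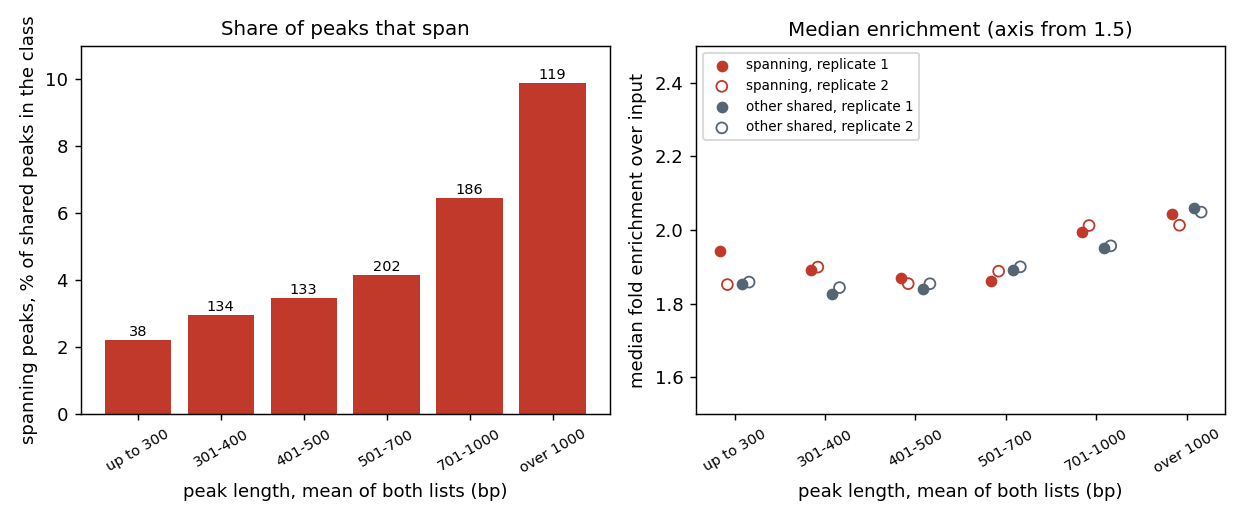
Left, spanning peaks as a percentage of all shared peaks in each class of length, with the number of spanning peaks above each bar; right, median fold enrichment of spanning and other shared peaks in each class and library, on an axis that starts at 1.5. The share is 2.21% in the shortest class and 9.90% in the longest, and above 1000 bp the spanning medians, 2.04 and 2.01, lie below the others, 2.06 and 2.05.

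About as many spanning peaks stood at 1 gene as at several. In 377 of the 812 (46.4%) no other gene was annotated in both lists, as for NAC019, XLG1 and DREB2C. The promoter of at least 1 other gene was touched by 403 (49.6%), as for GRF9 with FLA8 and MEE51 with OFP9. Of these, 79 touched the promoters of 2 other genes and 14 those of 3. Such peaks had a median of 1.93 in both libraries, against 1.93 and 1.94 for those without. An intron of the spanned gene was covered in 401 (49.4%), and these peaks had a median length of 669 bp against 520.5 bp. A coding exon of another gene was reached by 42 (5.17%). None of the 42 had 3-fold enrichment or more in both libraries. The share over all 812 was 2.71%, too low for the absence among 42 to be read as a difference.

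In 6 cases a single peak spanned the starts of a gene pair. The strongest of these covered AT4G03165 and AT4G03170, with AT4G03170 annotated as an AP2/B3-like transcription factor, with 3.17- and 2.96-fold enrichment. Another covered PKL (AT2G25170), which encodes a CHD3 chromatin remodeller that represses embryonic genes after germination, together with AT2G25169, with 2.36- and 1.96-fold. The pair AT4G14320, a ribosomal protein gene, and AT4G14330 had 1.76- and 2.00-fold.

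Where the summit fell within the peak could be read for 512 of the 806 spanning peaks over 1 gene. The direction of the gene was taken from other peaks in the same lists, since peaks on its promoter alone lie before its start and peaks on its exons or introns alone lie after it. In all 128 genes with other peaks on both sides, the sides gave the same direction. On a scale from 0% at the promoter end of the peak to 100% at the gene end, the median summit lay at 46.4% in replicate 1 and 49.7% in replicate 2. It lay nearer the gene end in 228 peaks (44.5%) of replicate 1 and in 255 (49.8%) of replicate 2. Among the 17 such peaks that reached 3-fold in both libraries, 6 had it nearer the gene end and 9 nearer the promoter end in both.

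**Figure D4:**
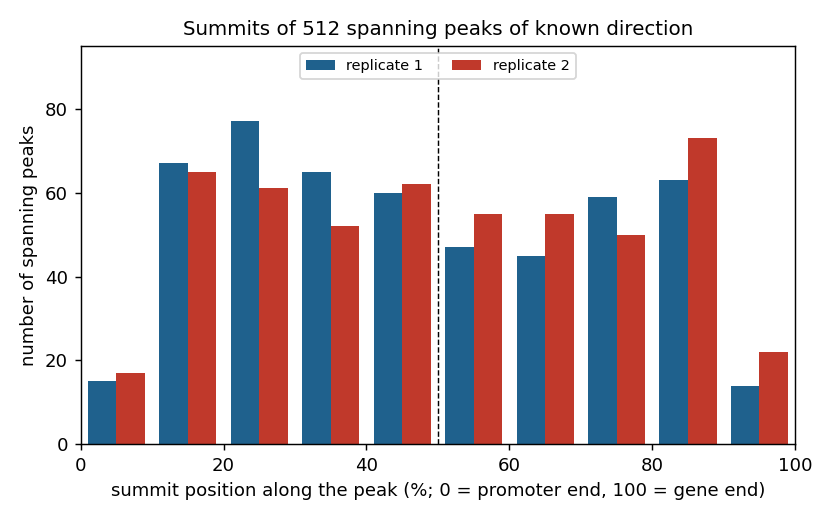
Number of spanning peaks by the position of the summit along the peak, from the promoter end (0%) to the gene end (100%), for the 512 peaks whose gene direction could be read, in replicate 1 (blue) and replicate 2 (red). Summits spread over the length of the peak on both sides of the dashed midpoint, with medians of 46.4% and 49.7%.

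The spanned genes included many that encode secreted proteins. Of the 771 spanned genes with a Gene Ontology (GO) term in the authors' annotation, 111 (14.4%) carried the term extracellular region, compared with 531 of 8744 (6.07%) other genes with a shared promoter peak, 8415 of which were protein-coding. The term defense response to fungus stood at 39 genes (5.06%) against 173 (1.98%), and killing of cells of another organism at 34 (4.41%) against 80 (0.915%). Apoplast, the space outside the cell membrane, stood at 24 (3.11%) against 153 (1.75%). These terms were chosen after their values were seen, and the counts carry no test. The rule needs a peak to reach from the promoter into a coding exon, and leader and gene lengths were not compared between these groups. Whether the rule itself set these shares, or the other term and family shares below, was not tested.

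Among the 111 extracellular region genes, 33 were annotated by name as cysteine-rich, ECA1, defensin-like, thionin or RALF-like. So were 23 of the 39 with defense response to fungus and 23 of the 34 with killing of cells of another organism. LCR42 and LCR73 carried each of these terms, so the terms overlap in their genes. Of 36 low-molecular-weight cysteine-rich (LCR) genes with a shared promoter peak, 17 (47.2%) had a spanning peak, compared with 818 of 9670 (8.46%) over all protein-coding genes with one. LCR genes encode small secreted proteins related to plant defensins. LCR73 had 2.65- and 3.30-fold enrichment on chromosome 2, from 545822 to 546828, and LCR68, close by from 539146 to 540132, 2.59- and 2.41-fold. LCR16 had 2.66- and 2.55-fold with summits 1 bp apart, LCR62 2.48- and 2.60-fold, and LCR36 2.88- and 2.45-fold. Annotated defensin-like genes were at 6 of 43, thionin genes at 5 of 27 and RALF-like genes, which encode peptides that raise extracellular pH, at 3 of 11. RALFL21 had 1.95- and 1.90-fold.

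Genes of the ECA1 gametogenesis family, small cysteine-rich proteins of reproductive tissue, were at 11 of 30 (36.7%), against the same 8.46%. Of these 11, 6 lay on chromosome 5 between 14335845 and 14450205. AT5G36661 had 3.89- and 3.14-fold enrichment with only 67 and 49 fragments, and AT5G36738 3.05- and 2.85-fold with 58 and 51. AT5G36470 had a far higher pileup, 268 and 260 fragments, and a lower enrichment of 1.99- and 2.07-fold. Pileup and enrichment thus took different orders within this cluster. Genes of such clusters can be near copies of each other, and how the authors placed reads that match several copies is not given in the sources used here, so the assignment of these peaks to single genes is uncertain.

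The share of genes with the term DNA-binding transcription factor activity was also counted. Such genes made up 77 (9.99%) of the spanned genes with a GO term, against 633 (7.24%) of other genes with a shared promoter peak. NAC019 and DREB2C led them, followed by AT1G64620 and BBX17 (2.45- and 2.63-fold). GRF9, under the strongest spanning peak, did not carry this term, so the count does not hold every transcription factor gene. Dof zinc finger genes were at 6 of 12 (50%) with a promoter peak, against 8.46% over all protein-coding genes with one. They were AT1G64620 (3.33- and 2.65-fold), AT2G28810, AT5G65590, AT1G26790, OBP2 (1.97- and 1.83-fold) and DAG1, a regulator of seed germination (1.49- and 1.69-fold). AGAMOUS-like MADS-box genes were at 8 of 38 (21.1%), with AGL59 at 2.2- and 2.52-fold, AGL39 at 2.34- and 2.38-fold and the floral gene AGL6 at 2.11- and 1.89-fold. Genes named as myb domain proteins were at 9 of 50 (18%), among them MYB118 (2.47- and 2.27-fold) and MYB3R-3, of the class that regulates mitotic genes (2.00- and 1.95-fold).

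The other transcription factor families are read against the same 8.46% over protein-coding genes with a promoter peak. NAC genes were at 3 of 40 (7.5%), with NAC099 at 2.4- and 1.95-fold, and ERF and DREB genes at 4 of 44 (9.09%), with SHN3, of cuticle formation, at 2.39- and 2.22-fold and ORA59, of jasmonate and ethylene defence, at 2.02- and 2.17-fold. Basic helix-loop-helix genes were at 6 of 45 (13.3%), with KDR at 2.52- and 2.34-fold and the gynoecium gene HEC3 at 1.88- and 2.01-fold. WRKY genes were at 1 of 22 (4.55%), which was WRKY12 (1.45- and 2.00-fold). Among enzyme families, laccase genes, which encode copper oxidases of lignin formation, were at 4 of 9. LAC3 had 2.66- and 2.37-fold, LAC8 1.85- and 1.97-fold, LAC12 1.82- and 1.98-fold and LAC7 1.64- and 1.90-fold. GDSL lipase genes were at 8 of 45.

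Other terms, also chosen after their values were seen, stood at lower shares. The term mitochondrion was carried by 18 spanned genes (2.33%) against 518 (5.92%) of other genes with a shared promoter peak, translation by 11 (1.43%) against 325 (3.72%), RNA binding by 17 (2.2%) against 363 (4.15%) and Golgi apparatus by 13 (1.69%) against 391 (4.47%). The planned term structural constituent of ribosome was at 8 (1.04%) against 117 (1.34%), with AT3G44010 at 2.35- and 2.22-fold and AT3G59540 at 2.24- and 2.01-fold. NUC-L1, a nucleolin gene of ribosomal RNA synthesis, had 1.97- and 2.35-fold. Kinase activity was nearly even, with 37 (4.80%) against 450 (5.15%), and MEE51 and AT3G46760 carried that term. CRK27, a cysteine-rich receptor-like kinase gene, had 3.00- and 2.89-fold.

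**Figure D5:**
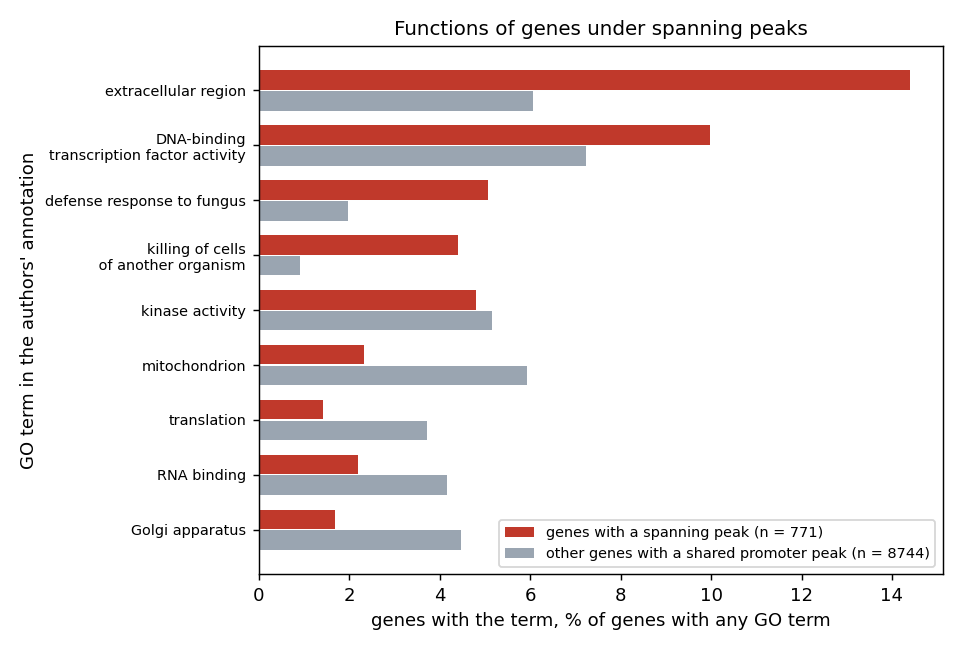
Percentage of genes carrying each GO term of the authors' annotation, among the 771 genes with a spanning peak (red) and the 8744 other genes with a shared promoter peak (grey). Extracellular region is at 14.4% against 6.07%, and mitochondrion at 2.33% against 5.92%; no test was made.

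Of the remaining terms fixed in the plan, only response to nitrate had no spanned gene. Response to auxin was carried by 13 spanned genes (1.69%) against 106 (1.21%), and included PKL, SK8 (2.03- and 2.25-fold), DEL2, an atypical E2F gene (1.86- and 2.25-fold), and RGF6, which encodes a peptide of the root meristem growth factor family (1.97- and 2.12-fold). Cell cycle stood at 4 (0.519%) against 107 (1.22%), with EMB3006 at 3.34- and 3.06-fold and AT2G21980, an augmin subunit gene, at 2.05- and 2.14-fold. Unfolded protein binding was at 2 genes (0.259%) against 39 (0.446%). The 2 were AIP3 (3.07- and 2.24-fold) and the HSP90 gene Hsp81.4 (1.73- and 2.30-fold). Mitochondrial inner membrane was at 2 (0.259%), AT5G48970 and NDPK3, against 75 (0.858%). Nucleosome was even, at 2 (0.259%), the histone genes AT2G28720 and RAT5, against 23 (0.263%). Response to brassinosteroid was carried by 1 spanned gene (0.130%), BZS1 (1.76- and 1.63-fold), against 14 (0.160%). Response to nitrate was carried by 0 against 11 (0.126%), a share too low for its absence among 771 genes to be read as a difference.

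Lists of nitrate, growth and hormone genes held spanned genes at about the background share. Over 8 lists with 160 genes in all, 4 had a spanning peak, 69 a shared promoter peak and 99 a shared peak in any region. The background over nuclear protein-coding genes was 2.98% for a spanning peak, 35.2% for a promoter peak and 54.4% for any region. Of 14 GRF, GIF and UBP12/13 genes only GRF9 had one. Of 24 brassinosteroid genes it was BKI1, an inhibitor of the receptor BRI1, with 2.26- and 1.81-fold enrichment, and of 18 cell cycle genes CYCD4;1, a D-type cyclin gene, with 2.01- and 2.04-fold. Of 22 auxin and lateral root genes it was LAX3, an auxin influx carrier of lateral root emergence. None was found among 21 nitrate transport genes, 8 of which had a shared promoter peak, among 33 nitrate signalling genes (11), among 17 genes of nitrogen assimilation and ammonium uptake (3), or among 11 meristem regulators (4).

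NRT1.1, NRT2.1 and BIN2 had a shared promoter peak that did not span, and UBP13 had none on its promoter. GRF5 itself and UBP12 had a spanning peak in replicate 1 alone, with 2.07-fold enrichment at GRF5 and 1.82-fold at UBP12. Many other peaks met the rule in 1 list only. Of the 1641 spanning peaks of replicate 1, 1191 had a partner in replicate 2, and in 379 of these the partner did not span. Those 379 were 768 bp long at the median in replicate 1, whereas their partners in replicate 2 were 423 bp long, and 203 of the partners kept the promoter, 160 the coding exon and 16 neither. Of the 1451 spanning peaks of replicate 2, 306 had a partner that did not span, with median lengths of 739 bp in replicate 2 and 429 bp in replicate 1.

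In these pairs the median enrichment was somewhat higher where the peak spanned. It was 1.94 against 1.85 in the partners for spanning peaks of replicate 1, and 1.92 against 1.88 for those of replicate 2. A further 450 spanning peaks of replicate 1, with a median of 1.74-fold, and 333 of replicate 2, with 1.77-fold, had no partner at all. A partner was found for 72.6% of spanning peaks of replicate 1, compared with 67.0% of all its nuclear peaks. In replicate 2 it was 77.1%, compared with 70.3%. Spanning peaks were the longer kind, and these shares were not compared within classes of length. The overlap rule decided few cases. ECS1, just inside it with an overlap of 53.6% of the shorter peak, had 2.1- and 1.77-fold, and AT1G70175, just outside with 49.4%, had 1.86- and 1.60-fold.

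Other peaks of the spanned genes were counted as well. A further shared peak in any region was found for 304 of the 818 (37.2%), against 3256 of 8852 (36.8%) other protein-coding genes with a shared promoter peak. A shared peak on exons or introns away from the promoter was found for 135 (16.5%), against 2618 (29.6%). The spanning peak itself was not counted here, although it covers a coding exon, so the rule bears on this difference. Gene length was not compared. Spanning peaks were spread over all 5 nuclear chromosomes, from 3.86% of the shared peaks on chromosome 2, where GRF9 and XLG1 lie, to 4.70% on chromosome 3.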

How the data were processed

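The data were peak lists of 2 GRF5 DAP-seq libraries of Arabidopsis thaliana, each called against the same input. Trimmomatic 0.39, Bowtie2 2.4.6, MACS2 2.2.7.1 and build TAIR10 are named per the submitters' processing notes; for caller settings and promoter length no source used here gives a value. Per the file headers, each deposited list holds a summit pileup signal, a fold enrichment, which is a ratio over local input background, and −log10 p-values and q-values. The largest q was 0.05.

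The 87571 and 82807 entries were collapsed to nuclear peaks by chromosome, start and end. Peaks were paired at most once, the largest overlap first, at an overlap of at least 50% of the shorter. Starts are 1-based. Symbols came from a RefSeq table of assembly TAIR10.1, on which all 818 spanned genes matched by locus tag; its coordinates were not used. Gene families were read from protein names in the authors' annotation. Python 3.11.15, numpy 2.4.6, pandas 2.3.3 and matplotlib 3.10.9 were used, and the pairing was tested on simulated peaks.

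Named genes were GRF5, UBP12, UBP13, BIN2, NRT1.1 and NRT2.1, the 20 highest peaks, up to 4 genes of each list or GO term, and the 3 at each end of length and of ratio; others, the 17 families and 12 added GO terms were chosen after values were seen. Members and lists were chosen with earlier results of these data known. Alternatives were the overlap, a q threshold, single lists, the gene match and classes of length. Separate preparation of protein or DNA per replicate is not stated in the labels, so the spread between libraries may be technical. The planned search for the GRF core motif was not run, since no promoter sequence was used here.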

Additional observations from a re-analysis of the deposited data

How the results depend on the processing

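The count of spanning peaks was 812 and moved to 425 (427 genes, 5.01% of shared peaks, median length 680 bp, median enrichment 2.067 in replicate 1 and 2.096 in replicate 2) when only peaks with −log10 q of at least 5 in both lists were paired. All 22 peaks that reached 3-fold are counted at that threshold too. With a single list, left-out replicates gave 1451 to 1641 spanning peaks, 1469 to 1658 genes, 5.36 to 5.79% of peaks, median lengths of 548 to 566 bp, against 572.75 bp over both lists, and median enrichments of 1.88 in replicate 1 and 1.89 in replicate 2. An overlap of 50% of both peaks gave 734 peaks, 4.61% of shared peaks and 568.5 bp. Leaving out peaks that touch another gene's promoter, an alternative chosen after seeing the data, left 409 peaks (2.15%), 414 genes and 8 peaks at 3-fold or more. Under the other alternatives the median enrichment of each library moved by less than the SD of 0.0075 between the libraries' medians. The difference in median enrichment between spanning and other peaks, 0.047 over both libraries, was 0.041 up to 300 bp, where it was 0.090 in replicate 1 and -0.0068 in replicate 2. It was 0.060 from 300 to 400 bp, 0.016 from 400 to 500 bp (0.031 and 0.00029 by library) and 0.049 from 700 to 1000 bp. It turned to -0.021 from 500 to 700 bp and -0.026 above 1000 bp, and the cause was not tested. No paired analysis was possible because both libraries belong to 1 group. The motif alternatives were not run. A −log10 q of 5 was reached by 558 (68.7%) spanning peaks in replicate 1 and 515 (63.4%) in replicate 2, against 61.8% and 58.2% of all shared peaks.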

Other observations

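Some spanned genes have no known function. Those annotated as hypothetical proteins were at 91 of 784 (11.6%) with a shared promoter peak, and those annotated as transmembrane proteins at 31 of 270 (11.5%), with AT5G44572 at 2.16- and 2.60-fold enrichment. Genes named as ribosomal proteins were at 6 of 114 (5.26%). Over all protein-coding genes with a shared promoter peak it was 8.46%. Among GDSL lipase genes AT1G73610 had 2.29- and 2.96-fold, and the plant thionin gene AT1G35035 had 2.56- and 1.88-fold. RALFL6 had 1.76- and 1.56-fold and RALFL5 1.58- and 1.68-fold. The term double fertilization was carried by 10 spanned genes (1.30%) against 36 (0.412%) of other genes with a shared promoter peak, and the ECA1-type genes AT5G36661 and AT5G36738 led them.

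Broad terms of location stood lower among spanned genes. Membrane was at 172 (22.3%) against 2306 (26.4%), nucleus at 154 of 771 spanned genes against 2009 of 8744 and plasma membrane at 62 (8.04%) against 980 (11.2%). The remaining peaks over gene pairs were weak. AT1G70949 and AT1G70950, a gene of the microtubule-binding TPX2 family, had 1.74- and 2.03-fold, AT4G09440 and AT4G09450 had 1.94- and 1.89-fold, and AT1G53541 and AT1G53542 had 1.88- and 1.79-fold. MAKR5, a membrane-associated kinase regulator gene, had 2.76- and 2.66-fold. The rule took nuclear peaks alone, so no spanning peak could lie on the chloroplast or mitochondrial chromosome. On these the lists held 53 and 25 peaks in replicate 1 and 50 and 29 in replicate 2.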
